A study of Mus musculus with 25 samples.

Results

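A set of 10 markers of cells other than CD4 T cells was followed through RNA of sorted CD4 T cells: the CD8 coreceptor genes Cd8a and Cd8b1, the natural killer (NK) receptor genes Klrd1, Klrk1, Klrb1c and Ncr1, the cytotoxic granule genes Ctsw and Nkg7, the chemokine gene Xcl1, and Trdc, the constant gene of the delta T cell receptor chain. They were chosen by symbol, as 10 of the 46078 genes in the count table, with earlier results of these data known. The cells came from C57BL/6NTac mice of 3 genotypes at the gene of the microRNA miR-150: wild-type, knock-out of miR-150 (knock-out) and knock-in of miR-150 (knock-in). Mice were naive or at day 7 of experimental autoimmune encephalomyelitis (EAE), in which an immunization against myelin starts an attack on the central nervous system led by CD4 T cells. There were 5 libraries of wild-type day 7 cells and 4 of each of the other 5 groups, 25 in all. The labels give no organ, age, sex or sorting gate, and do not say how the knock-in changed the gene or whether each library stands for its own mouse. P-values therefore measure only the spread between these libraries, which may be technical. Replicates are numbered in the order of their records and are not paired across groups.

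Mature helper T cells carry CD4, while cytotoxic T cells carry CD8, a dimer of a CD8 alpha chain with a second alpha chain or a CD8 beta chain that helps the T cell receptor read class I MHC. NK cells lack a rearranged T cell receptor and weigh activating receptors, such as NKG2D (Klrk1) and NKp46 (Ncr1), against inhibitory ones, and gamma-delta T cells use a receptor built from gamma and delta chains in place of alpha and beta chains. RNA of these genes in a CD4 sort can come from other cells in the gate or from the CD4 T cells themselves, and bulk RNA does not separate the 2 sources.

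Depth ran from 6024043 to 49489134 counts per library, with a median of 16312725, and the wild-type naive group was shallow, with none of its libraries above 9351180 counts. Mir150 had 0 counts in all 8 knock-out libraries and at least 105 in every other library. Ribosomal RNA genes took 16.7% ± 0.868 of counts in naive libraries (SD, n = 12) and 18.2% ± 1.35 at day 7 (SD, n = 13). Cd4 itself held 492 ± 30.2 CPM (counts relative to the library's total, scaled by TMM; SD, n = 25), with a range of 443 to 582. None of 12 tested CD4 T cell identity genes changed over the genotypes between stages in edgeR, with 3 at an unadjusted p under 0.05, and limma voom also called 0. Without the filter on low counts, edgeR called 1 of them, Cd28, lower over the genotypes, beside 6.67% of 29775 genes changed in either direction. That fit also called Cd28 lower in wild-type and in knock-in cells. Cd4 gave 0.08 on the log2 scale in edgeR (adjusted p = 0.0985), and passed in DESeq2 (0.09, adjusted p = 0.049) and with a stricter filter of 5 CPM in 4 libraries (0.09, adjusted p = 0.0453). Replicate 4 of the knock-out naive group stood apart among the markers: it held the highest level of 6 of the 10 (Cd8a, Cd8b1, Klrd1, Klrk1, Klrb1c and Ncr1). That library also had the highest summed level of 11 B cell markers counted without Ighm, 33.6 CPM, against a median of 11.9 CPM over the 12 naive libraries. It was highest as well in 14 summed myeloid markers, at 27.4 CPM. The same held for 8 Ly49 genes of NK cells, at 4.25 CPM. For 4 gamma chain constant genes it was highest by little, at 9.06 CPM. Replicate 1 of the knock-out naive group held 8.91 CPM of these and replicate 3 of the wild-type naive group 8.7 CPM.

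Promoter windows are shown for the 3 NK-associated genes that fell at day 7 and had an entry, a choice made by outcome. RefSeq windows on GRCm38.p6 (250 bases before to 50 after each start, 300 bases, read on the gene's strand) matched 6 of the 10 markers: Cd8a, Klrk1, Klrb1c, Nkg7, Ncr1 and Xcl1. Cd8b1, Klrd1, Ctsw and Trdc had no entry. Capitals mark the letters TGTGGT or their reverse complement ACCACA, a core bound by RUNX factors, and TCACAC or GTGTGA, a core bound by T-box factors such as T-bet and Eomes. Both strands were searched, and no match overlapped another.
Klrk1, chr6:129623815-129624114, minus strand: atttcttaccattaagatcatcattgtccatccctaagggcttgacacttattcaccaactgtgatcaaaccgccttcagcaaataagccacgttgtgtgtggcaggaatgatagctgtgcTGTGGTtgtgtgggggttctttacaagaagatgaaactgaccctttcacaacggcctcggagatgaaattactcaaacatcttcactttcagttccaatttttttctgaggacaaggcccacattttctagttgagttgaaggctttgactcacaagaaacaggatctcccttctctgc
Nkg7, chr7:43436888-43437187, plus strand: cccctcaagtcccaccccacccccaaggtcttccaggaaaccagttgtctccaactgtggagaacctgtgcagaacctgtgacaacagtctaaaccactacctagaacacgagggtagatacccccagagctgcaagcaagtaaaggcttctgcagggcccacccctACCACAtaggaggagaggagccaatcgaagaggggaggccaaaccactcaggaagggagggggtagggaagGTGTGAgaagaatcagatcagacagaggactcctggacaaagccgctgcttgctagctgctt
Ncr1, chr7:4337465-4337764, plus strand: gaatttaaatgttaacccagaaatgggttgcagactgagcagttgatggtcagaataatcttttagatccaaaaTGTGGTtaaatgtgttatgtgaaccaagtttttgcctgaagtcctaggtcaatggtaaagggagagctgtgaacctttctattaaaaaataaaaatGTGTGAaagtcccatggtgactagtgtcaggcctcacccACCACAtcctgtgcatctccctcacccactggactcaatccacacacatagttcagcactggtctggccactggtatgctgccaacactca
Ncr1 had a second, overlapping window from position 4337474, not shown, with 2 RUNX matches and 1 T-box match as well. The RUNX letters stood in windows of 5 of the 6 markers, all but Cd8a, and in 16.8% of 32851 RefSeq windows of this length. The first of these shares counts markers and the second counts windows. The T-box letters stood in windows of 3 of the 6 markers (Nkg7, Ncr1 and Xcl1), and in 14.5% of all windows. Counted from 1 at the first base of the window shown, the RUNX matches of Ncr1 began at 75 and 210 and its T-box match at 171. Nkg7 had its RUNX match at 168 and its T-box match at 239, close before the start, and Klrk1 had a single RUNX match at 122. Klrb1c and Xcl1, which did not pass the tests of stage below, also held 1 RUNX match each, and Xcl1 held 1 T-box match. A match describes the letters only, and binding was not measured.

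The level of each marker was set against Cd4, per kilobase of exon so that genes of different length could be compared. Ctsw, a protease of cytotoxic granules, was the most abundant at 8.94% ± 3.05 of the Cd4 level per kilobase (SD, n = 25). Cd8b1 followed at 5.36% ± 1.03, Klrd1 at 2.79% ± 1.39, Trdc at 2.3% ± 0.712 and Nkg7 at 1.14% ± 1.01 of Cd4. The remaining 5 markers averaged under a percent of Cd4 per kilobase: Cd8a 0.259%, Xcl1 0.179%, Ncr1 0.131%, Klrb1c 0.122% and Klrk1 0.102%. Klrd1 and Trdc differed by less than their SD over libraries, and so did the last 5 markers relative to the SD of Cd8a, 0.345 percentage points. Ncr1 had no count in 12 of 25 libraries and Xcl1 in 14, while Cd8a, Cd8b1, Klrd1, Ctsw and Trdc were counted in all 25.

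**Figure D1:**
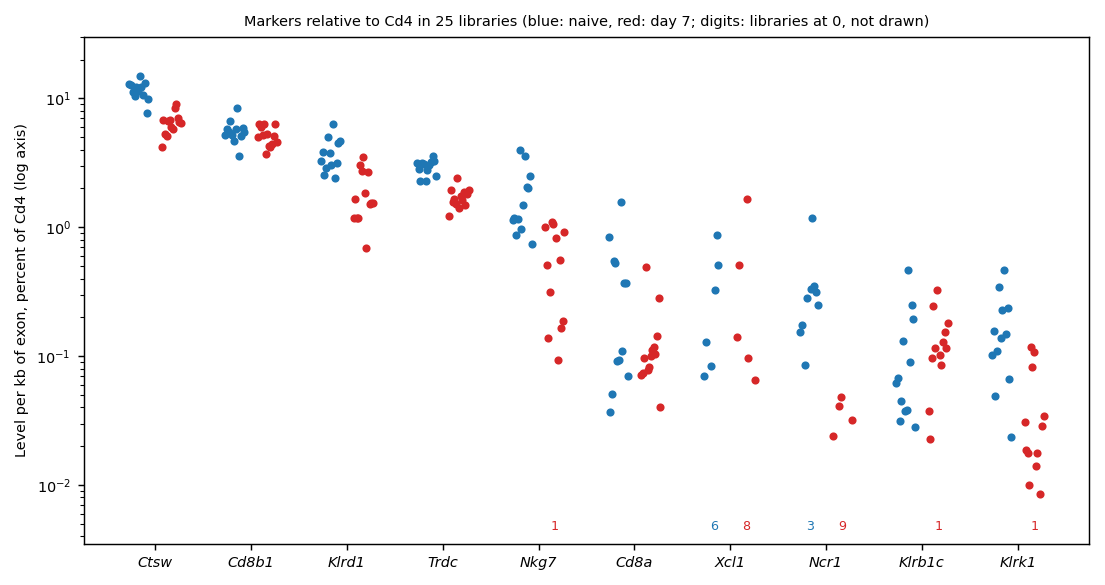
Level of each of the 10 markers per kilobase of exon as a percent of the Cd4 level in the same library, on a log axis, with 1 point per library (blue naive, n = 12; red day 7, n = 13). Digits at the bottom count libraries at 0, which are not drawn. Ctsw, Cd8b1, Klrd1 and Trdc form the upper part, and Ncr1 is absent from 9 of 13 day 7 libraries.

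At day 7 the NK receptor genes Klrd1 and Klrk1, the granule genes Ctsw and Nkg7 and the delta chain gene Trdc were lower, while Cd8a, Cd8b1 and the NK receptor gene Klrb1c did not pass the test. Of the 10 markers, 8 had enough counts for the model across all 14703 tested genes, and Ncr1 and Xcl1 did not. Averaged over the 3 genotypes, 5 of the 8 fell (Ctsw, Trdc, Klrd1, Klrk1 and Nkg7) and none rose. Over all tested genes, 11.2% changed at that threshold (edgeR quasi-likelihood test, Benjamini-Hochberg adjusted p under 0.05), and 5.06% fell. The log2 changes of the 8 had a median of -0.90, beside 0.00 over all tested genes. In bulk RNA, fewer cells of a type and less RNA per cell cannot be told apart. The ribosomal RNA share given above moved with stage, and its part in these changes was not tested.

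**Figure D2:**
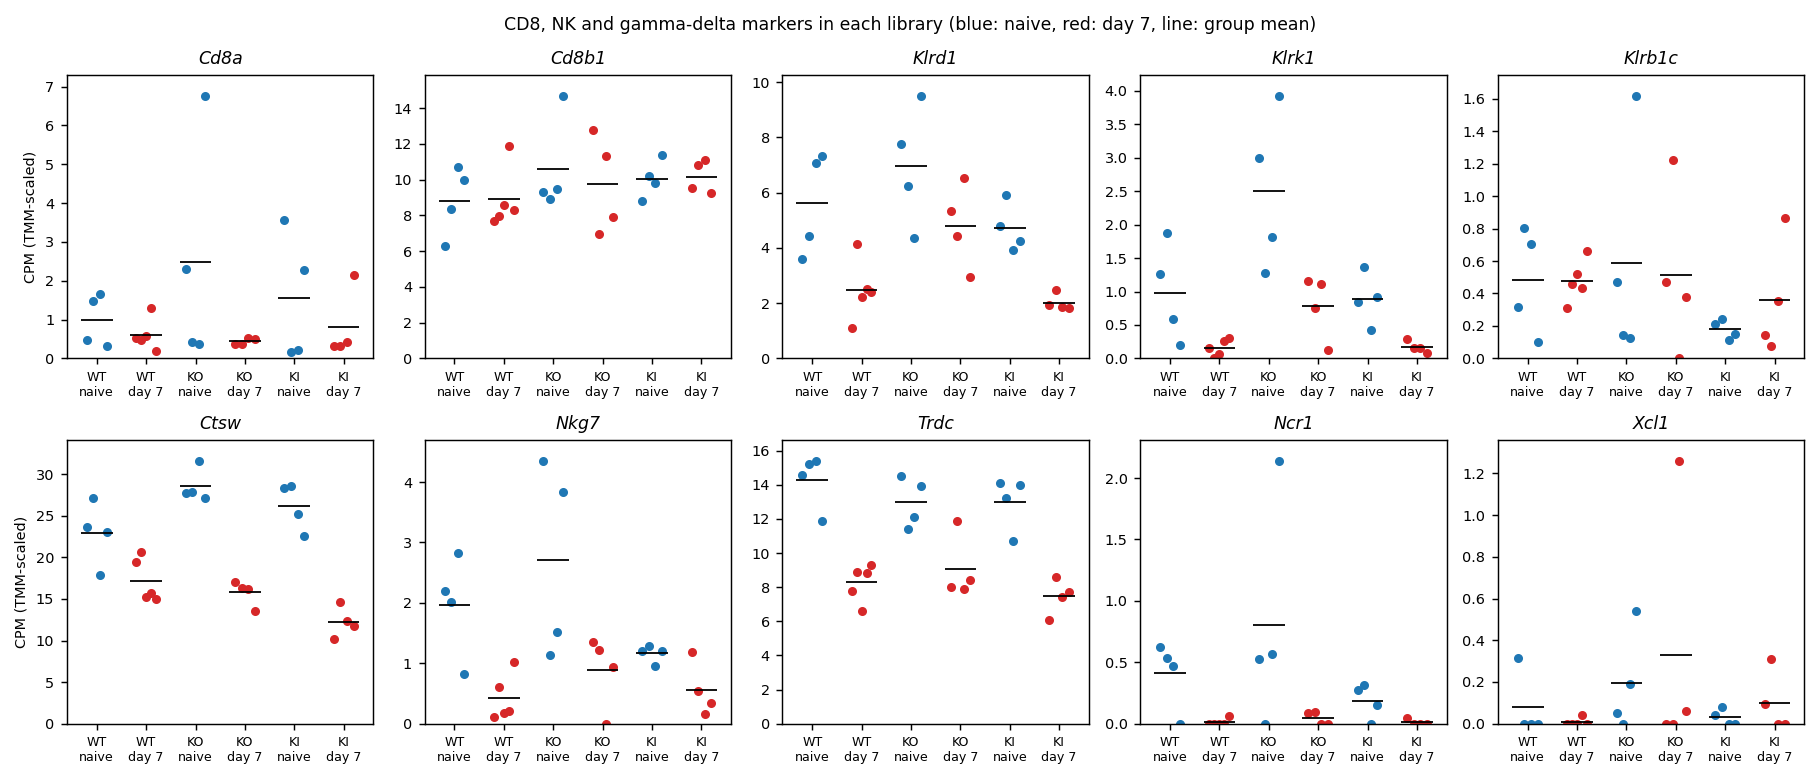
CPM of each of the 10 markers in every library, by genotype and stage (WT wild-type, KO knock-out, KI knock-in; blue naive, red day 7), with a line at the group mean and linear axes from 0. Ctsw, Trdc, Klrd1, Klrk1, Nkg7 and Ncr1 sit lower at day 7, Cd8b1 is level, and single libraries stand high for Cd8a, Klrb1c and Xcl1.

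Of the NK receptors, Klrk1 encodes NKG2D, an activating receptor for stress-induced ligands that CD8 and gamma-delta T cells also carry. Its level in the wild-type naive libraries was 1.26, 1.88, 0.588 and 0.206 CPM, and in the 5 wild-type day 7 libraries 0.157, 0, 0.069, 0.259 and 0.301 CPM. Knock-out cells held 2.99, 1.28, 1.82 and 3.93 CPM when naive and 1.15, 0.753, 1.11 and 0.125 at day 7. Knock-in cells held 0.848, 1.36, 0.422 and 0.911 CPM when naive and 0.283, 0.154, 0.158 and 0.0865 at day 7. The stages did not overlap in knock-out and in knock-in cells, and in wild-type cells only the lowest naive library lay within the day 7 range. Klrk1 fell by 2.11 on the log2 scale over the genotypes, 4.32-fold (SE 0.38, adjusted p = 0.00045). Within a single genotype the change missed the threshold in edgeR, at -2.46 in wild-type (SE 0.68, adjusted p = 0.0558), -1.65 in knock-out (SE 0.59, adjusted p = 0.209) and -2.23 in knock-in cells (SE 0.70, adjusted p = 0.0965). The wild-type change passed in DESeq2 (adjusted p = 0.0182), without the filter (0.0217) and without naive replicate 4 (0.0341) or day 7 replicate 4 (0.0486). The knock-in change passed in DESeq2 (adjusted p = 0.0487). These rest on few reads, with 16 counts over the wild-type and 13 over the knock-in day 7 group.

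Klrd1 encodes CD94, the partner chain of the NKG2 receptors that read the class I molecule Qa-1. Wild-type libraries gave 3.61, 4.43, 7.06 and 7.32 CPM when naive and 1.1, 4.15, 2.21, 2.5 and 2.4 at day 7. Knock-out libraries gave 7.75, 6.23, 4.34 and 9.51 CPM when naive and 5.32, 4.42, 6.53 and 2.95 at day 7. Knock-in libraries gave 4.79, 5.91, 3.93 and 4.25 CPM when naive and 1.94, 2.46, 1.85 and 1.82 at day 7. Every knock-in day 7 library lay below every knock-in naive one, while the stages overlapped in the other genotypes. Over the genotypes Klrd1 fell 2.0-fold (SE 0.18, adjusted p = 0.000338). It also passed in wild-type (-1.25, SE 0.30, adjusted p = 0.0233) and knock-in cells (-1.23, SE 0.32, adjusted p = 0.037), but not in knock-out cells (-0.53, SE 0.29, adjusted p = 0.465). The knock-in call was lost when any 1 of its 8 libraries was left out (adjusted p 0.0546 to 0.128). The wild-type call was lost without day 7 replicate 1, 3 or 5 or naive replicate 3 or 4, with changes of -1.05 to -1.25 on the log2 scale, and when only the wild-type groups were fitted (-1.25, adjusted p = 0.061).

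Ncr1 encodes NKp46, a receptor found on NK cells and other innate lymphocytes and on few T cells. It was counted 154 times in the 12 naive libraries and 5 times in the 13 day 7 libraries. In CPM, the wild-type naive libraries held 0.628, 0.537, 0.471 and 0, and only replicate 5 of 5 at day 7 held any, 0.0601. Knock-out libraries held 0.524, 0, 0.566 and 2.14 CPM when naive and 0.0851, 0.0941, 0 and 0 at day 7. In knock-in libraries the values were 0.276, 0.319, 0 and 0.152 CPM when naive and 0.0472, 0, 0 and 0 at day 7. Counts were thus found in 9 of 12 naive and 4 of 13 day 7 libraries, and each genotype had 1 naive library at 0, so that the stages overlapped. A count of 0 allows up to 3 counts, which set limits of 0.0606 to 0.466 CPM on the libraries at 0; the weakest limit was that of replicate 2 of the wild-type day 7 group. The pooled level was 33.0 times higher in naive libraries, with a counting interval of 13.9 to 103 (95%, exact, for counting error only). The mean difference within genotypes was -0.444 CPM (two-sided exact permutation of stage within genotype over 617400 relabellings, p = 0.000272, adjusted over Ncr1 and Xcl1 p = 0.000544). Replicate 4 of the knock-out naive group supplied 95 of the 154 naive counts. Without it the ratio was 15.3 (6.2 to 48.9), and over the 25 ways of leaving out 1 library the exact permutation p ran from 9.11e-05 to 0.0029.

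Klrb1c encodes NK1.1, the antigen by which NK and NKT cells of C57BL/6 mice are stained. It averaged 0.417 ± 0.446 CPM in naive libraries (SD, n = 12) and 0.453 ± 0.328 at day 7 (SD, n = 13). The highest naive library was replicate 4 of the knock-out group, at 1.62 CPM, and the other 3 in that group held 0.472, 0.142 and 0.126. Its change over the genotypes was 0.18 on the log2 scale (SE 0.52, adjusted p = 0.881), with a 95% interval of -0.84 to 1.20, which is wide. Klrb1c shares 413 exon bases with the gene model Gm44511 on the same strand, which is not in the count table. Of its 50-base words, 16.98% occur in another gene, mainly this same model. The count of Klrb1c is uncertain to that extent, and any effect on it was not tested.

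Of the granule genes, Ctsw encodes cathepsin W, a protease found in CD8 T cells and NK cells. Wild-type libraries held 23.7, 27.1, 17.9 and 23.0 CPM when naive and 19.4, 20.6, 15.2, 15.7 and 15 at day 7. Knock-out libraries held 27.7, 27.8, 31.6 and 27.1 CPM when naive and 17, 16.3, 16.2 and 13.6 at day 7. Knock-in libraries held 28.3, 28.6, 25.2 and 22.6 CPM when naive and 10.2, 14.6, 12.4 and 11.7 at day 7. The stages were apart in knock-out and knock-in cells, while 1 wild-type naive library lay within the day 7 range. Ctsw fell by 0.80 on the log2 scale over the genotypes, 1.74-fold (SE 0.07, adjusted p = 2.25e-08). It fell in knock-out (-0.85, SE 0.13, adjusted p = 0.000547) and knock-in cells (-1.11, SE 0.13, adjusted p = 8.57e-06), and missed the threshold in wild-type cells (-0.43, SE 0.13, adjusted p = 0.073). The wild-type fall passed in DESeq2 (adjusted p = 0.0422), without the filter (0.0484), and without day 7 replicate 2 (0.0375) or naive replicate 3 (0.0396). All 4 knock-in day 7 libraries were below all 5 wild-type day 7 libraries, a separation that 0.66% of tested genes showed in that direction. That genotype difference did not pass (-0.48, SE 0.13, adjusted p = 0.678), nor did the difference between the stage changes of knock-in and wild-type cells (-0.68, SE 0.18, adjusted p = 0.797).

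Nkg7 encodes a membrane protein of cytotoxic granules, abundant in NK cells and activated CD8 T cells. Its naive levels were 2.2, 2.01, 2.82 and 0.825 CPM in wild-type, 4.35, 1.13, 1.51 and 3.84 in knock-out and 1.21, 1.28, 0.955 and 1.21 in knock-in libraries. At day 7 they were 0.104, 0.615, 0.173, 0.216 and 1.02 CPM in wild-type, 1.36, 1.22, 0 and 0.941 in knock-out and 1.18, 0.539, 0.158 and 0.346 in knock-in libraries. Day 7 and naive libraries overlapped in each genotype. Nkg7 fell by 1.68 on the log2 scale over the genotypes, 3.2-fold (SE 0.44, adjusted p = 0.0132), and passed in no single genotype in edgeR. In wild-type cells it was -2.30 in edgeR (adjusted p = 0.124) and passed in DESeq2 (-2.27, adjusted p = 0.0426) and without the filter on low counts (-2.29, adjusted p = 0.00438). Replicate 3 of the knock-out day 7 group, the deepest library at 49489134 counts, had 0 counts of Nkg7 and of Klrb1c.

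Trdc was counted in every library, between 58 and 665 times. Wild-type libraries held 14.6, 15.2, 15.4 and 11.9 CPM when naive and 7.79, 8.91, 6.59, 8.81 and 9.32 at day 7. Knock-out libraries held 14.5, 11.4, 12.1 and 13.9 CPM when naive and 8.0, 11.9, 7.88 and 8.41 at day 7. Knock-in libraries held 14.1, 13.2, 10.7 and 14 CPM when naive and 6.05, 8.62, 7.45 and 7.7 at day 7. No day 7 library reached the naive range in wild-type or knock-in cells, while replicate 2 of the knock-out day 7 group did. Over the genotypes Trdc fell by 0.71 on the log2 scale, 1.64-fold (SE 0.09, adjusted p = 2.91e-06). The fall passed in wild-type (-0.79, SE 0.15, adjusted p = 0.00298) and knock-in cells (-0.80, SE 0.16, adjusted p = 0.00468), and missed the threshold in knock-out cells (-0.54, SE 0.15, adjusted p = 0.102), where DESeq2 called it (adjusted p = 0.0463). Without replicate 2 of the knock-out day 7 group the knock-out change was -0.69 on the log2 scale and passed. Trdc shares exon bases with Trdv5 and, over 96 bases, with Gm43434, both on the opposite strand, and the strand setting of the counting was not given in the sources used here.

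Among 18 listed gamma-delta genes 14 were tested: 5 fell (Tcrg-C1, Tcrg-C2, Tcrg-C4, Tcrg-V1 and Trdv5) and 1 rose over the genotypes, beside 5.06% and 6.16% of all tested genes, and their log2 changes had a median of -0.80. Tcrg-C1, a constant gene of the gamma chain, fell by 0.97 on the log2 scale (SE 0.27, adjusted p = 0.0171), with naive libraries at 2.02 ± 0.784 CPM (SD, n = 12) and day 7 libraries at 1.13 ± 0.873 CPM (SD, n = 13). Tcrg-C4, another gamma constant gene, fell by 1.18 (SE 0.33, adjusted p = 0.0176). Trdv5, a delta variable segment that shares exon bases with Trdc, fell by 1.43 (SE 0.42, adjusted p = 0.0265), and any sharing of reads with Trdc was not tested. Il23r, the receptor chain for IL-23 on type 17 gamma-delta and helper T cells, rose by 1.54 (SE 0.41, adjusted p = 0.0143). Leaving out replicate 3 of the wild-type naive group lost the calls of Tcrg-C1 (adjusted p = 0.0554) and Trdv5 (0.0619), and leaving out replicate 1 of the knock-in day 7 group lost that of Il23r (0.059). Limma voom did not call Il23r either (1.15, adjusted p = 0.058). DESeq2 and limma voom each called 6 genes of the list lower, the same 5 and Tcrg-V4. Without the filter all 18 entered the fit, and 7 fell and 2 rose, beside 6.67% of 29775 genes changed in either direction. That fit added Tcrg-V4 and 5830411N06Rik to the falls and Cd163l1 to the rises. The 4 gamma constant genes summed to 3.4 to 9.06 CPM in naive and 1.41 to 6.66 CPM in day 7 libraries, and were apart in knock-in cells, at 3.87 to 5.91 against 1.64 to 2.23.

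**Figure D3:**
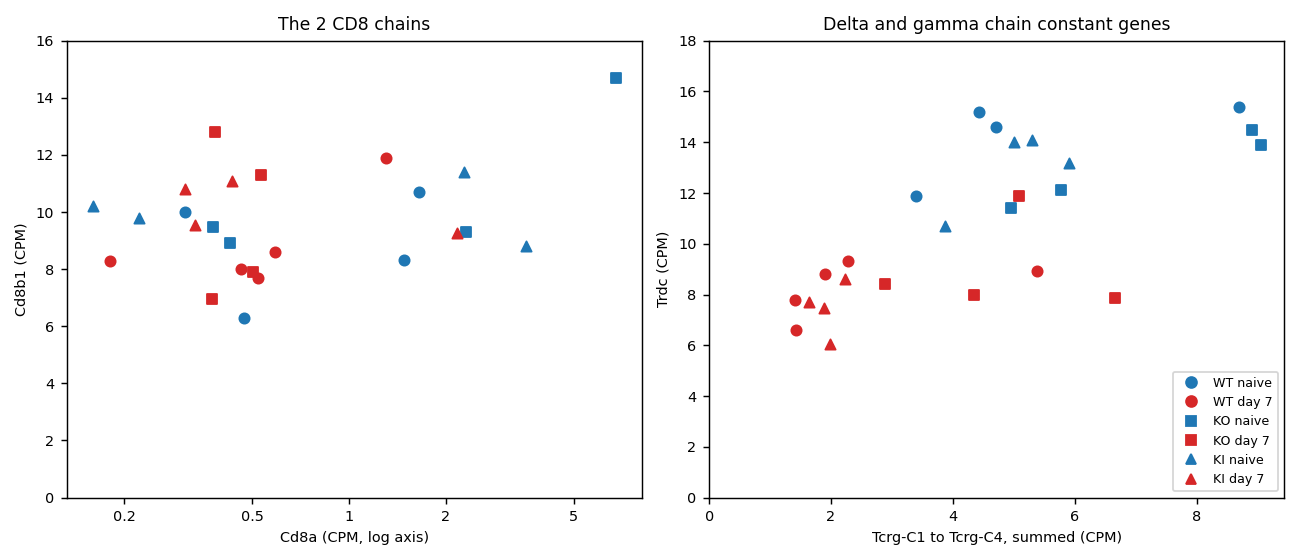
Left, Cd8b1 against Cd8a in CPM with a log horizontal axis. Right, Trdc against the summed CPM of the 4 gamma chain constant genes. Each point is 1 of 25 libraries (blue naive, red day 7; circles wild-type, squares knock-out, triangles knock-in). Cd8b1 stays within 6.28 to 14.7 CPM while Cd8a spans 0.16 to 6.77, and all but 1 of the day 7 libraries lie under 10 CPM of Trdc.

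The 2 CD8 chains differed in level and spread. Cd8b1, the beta chain, held 8.83 ± 1.97 CPM in wild-type naive (SD, n = 4) and 8.9 ± 1.72 in wild-type day 7 libraries (SD, n = 5). It held 10.6 ± 2.72 and 9.74 ± 2.75 CPM in knock-out and 10.1 ± 1.06 and 10.2 ± 0.9 CPM in knock-in libraries at these stages (SD, n = 4 each). The change over the genotypes was -0.02 on the log2 scale (SE 0.11, adjusted p = 0.927), with a 95% interval of -0.25 to 0.20. Cd8a, the alpha chain that every CD8 dimer needs, was lower and uneven. Its naive libraries held 0.471, 1.48, 1.65 and 0.309 CPM in wild-type, 2.31, 0.425, 0.377 and 6.77 in knock-out and 3.56, 0.16, 0.222 and 2.28 in knock-in cells. At day 7 the values were 0.522, 0.461, 0.587, 1.3 and 0.18 CPM in wild-type, 0.383, 0.376, 0.531 and 0.502 in knock-out and 0.331, 0.308, 0.434 and 2.16 in knock-in cells. High and low libraries stood side by side in each naive group, and the stages overlapped in every genotype.

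Over the genotypes the Cd8a change was -1.37 on the log2 scale (SE 0.51, adjusted p = 0.0815). It passed without replicate 4 of the knock-in day 7 group (-1.73, adjusted p = 0.0263) and shrank to -0.96 (adjusted p = 0.232) without replicate 4 of the knock-out naive group. Per kilobase, Cd8a stood at 0.00637 to 0.188 of Cd8b1, with a median of 0.0235 over the 25 libraries. Cd8b1 shares 6.28% of its 50-base words with another gene, mainly Gabpb2, and Cd8a 0.08%. The deviations of the chains from their group means gave Pearson r = 0.29 (permutation p = 0.15, adjusted over 28 pairs of the 8 tested markers 0.61) and Spearman rho = 0.20 (permutation p = 0.36, adjusted 0.73) over 25 libraries. Without the 2 libraries farthest in Cd8a, r was 0.24. None of the 28 pairs passed after adjustment. The highest was Klrb1c with Nkg7, at r = 0.60 (permutation p = 0.025, adjusted 0.19) and rho = 0.49 (permutation p = 0.032, adjusted 0.27), with r = 0.41 without the 2 farthest libraries.

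The genes most like Cd8a and Trdc were sought among 11306 tested genes by Pearson correlation of deviations from group means over the 25 libraries, given as a description. Left out were predicted genes, pseudogenes, Xist, mitochondrially encoded genes, T cell receptor variable segments and immunoglobulin genes. Trdv5, which overlaps Trdc, could therefore not appear. For Cd8a these were Ciita (r = 0.84), the master regulator of class II MHC genes, Pax5 (0.73), the identity factor of B cells, and Wdfy4 (0.73), which dendritic cells use in cross-presentation. The libraries high in Cd8a were in part those high in B cell markers: replicate 4 of the knock-in day 7 group had 33.5 CPM over the 11 B cell markers without Ighm, the second highest sum after replicate 4 of the knock-out naive group. Replicate 3 of the wild-type day 7 group, with 30.7 CPM of these markers, held 0.587 CPM of Cd8a. The part of B cell or dendritic cell RNA in the Cd8a values was not tested. For Trdc the nearest genes were Arsb (r = 0.75), a lysosomal sulfatase, Tubg2 (0.75), a gamma-tubulin, and Stx6 (0.70), a syntaxin of the Golgi.

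Xcl1, a chemokine that NK cells and activated CD8 T cells make to draw cross-presenting dendritic cells, had 34 counts in naive and 65 in day 7 libraries. Of the 65, 57 lay in replicate 3 of the knock-out day 7 group, at 1.26 CPM, and every other library was at or below 0.54 CPM. Its mean difference was 0.0453 CPM (two-sided exact permutation of stage within genotype, p = 0.795). Xcl1 shares 98 exon bases with Gm20743 on the opposite strand.

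Taking each genotype alone, 2 of the 8 tested markers fell in wild-type, 1 in knock-out and 3 in knock-in cells, and none rose (edgeR). These counts moved with the tool: DESeq2 called 5 in wild-type (Ctsw, Klrd1, Klrk1, Nkg7 and Trdc), 2 in knock-out (Ctsw and Trdc) and 4 in knock-in cells (Ctsw, Klrd1, Klrk1 and Trdc), while limma voom called the same genes as edgeR. Over all tested genes, 2.14% changed in wild-type and 0.966% fell in edgeR, while 0.408% changed in knock-out and 0.197% fell. In knock-in cells 2.02% changed and 1.01% fell in edgeR. DESeq2 called 3.39%, 1.51% and 3.39% of tested genes in wild-type, knock-out and knock-in cells. Limma voom called 3.51%, 0.109% and 4.9%, in the same order. All libraries at day 7 lay below all naive ones for 1 marker in wild-type (Trdc, beside 2.92% of tested genes), 2 in knock-out (Klrk1 and Ctsw, beside 2.64%) and 4 in knock-in cells (Klrd1, Klrk1, Ctsw and Trdc, beside 6.33%). The 4 stage comparisons are not independent, since the mean over genotypes uses the same libraries.

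**Figure D4:**
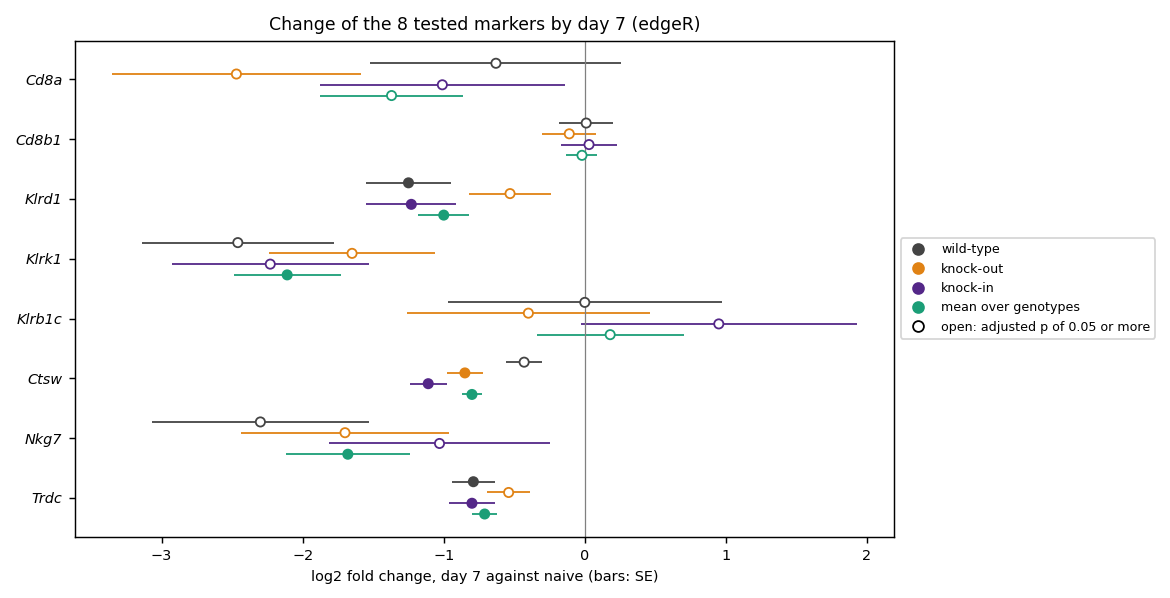
Log2 fold change of the 8 tested markers at day 7 against naive cells in wild-type, knock-out and knock-in cells and as the mean over genotypes, with the SE as bars. Filled points passed the adjusted p of 0.05. In the mean over genotypes Klrk1 and Nkg7 have the lowest values and wide bars, Ctsw and Trdc smaller changes with narrow bars, and Cd8b1 sits close to 0.

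Genotype moved none of the 8 tested markers past the threshold at either stage. Few genes of any kind passed: 0.0204% in naive and 0.0476% in day 7 knock-out against wild-type cells, and 0.0136% and 0.0% in knock-in cells (edgeR, with 333 and 684 genes at an unadjusted p under 0.05 for the knock-in). For knock-in against wild-type at day 7, DESeq2 and limma voom called 0 as well. At day 7, Klrk1 was 4.61-fold higher in the knock-out group mean (log2 2.20, SE 0.65, adjusted p = 0.198) and Klrd1 2.05-fold higher (1.03, SE 0.29, adjusted p = 0.192), with overlapping libraries. In naive cells the knock-out value of Klrk1 was 1.40 on the log2 scale (SE 0.62, adjusted p = 0.622). The stage change differed by genotype for no tested marker, among 0.0% of all genes for each of the knock-out and knock-in interactions. At an unadjusted p under 0.05 there were 1145 genes in the knock-out and 558 in the knock-in interaction, with Ctsw as the 1 marker in each. After adjustment DESeq2 called 1 gene in each interaction, and limma voom 0 in the knock-out and 2 in the knock-in interaction. For Klrd1 the knock-out interaction was 0.72 on the log2 scale (SE 0.42, adjusted p = 0.667), so its pass in wild-type and not in knock-out cells is not a shown difference.

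Other genes of NK cells were mostly too scarce to test. Of 25 other NK receptors and adaptors only 8 were tested and 0 changed over the genotypes in edgeR, DESeq2 or limma voom, with 2 at an unadjusted p under 0.05 (median log2 change -0.16). The other 17, most of them Ly49 (Klra) and Klrc, Klre and Klri genes, had too few counts. Without the filter all 25 entered the fit and 5 fell (Klra3, Klra4, Klra6, Klra8 and Klrc2), while 6.67% of 29775 genes changed in either direction. The counts of these 5 over all libraries ran from 31 (Klra3) to 116 (Klrc2). Summed over the 8 listed Ly49 genes, naive libraries held 0.152 to 4.25 CPM with a median of 0.711, and day 7 libraries 0 to 1.73 CPM with a median of 0.104. Il2rb, the shared beta chain of the IL-2 and IL-15 receptors, was the most abundant of the list at 48.6 ± 9.11 CPM in naive (SD, n = 12) and 54.1 ± 11.4 CPM in day 7 libraries (SD, n = 13; adjusted p = 0.458). Hcst, the DAP10 adaptor of NKG2D, stood at 13.6 ± 2.2 and 13.1 ± 2.48 CPM (adjusted p = 0.753).

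Among 16 cytotoxic effectors other than Ctsw and Nkg7, 12 were tested, 3 rose and none fell, beside the 6.16% of all tested genes that rose and 5.06% that fell: Prf1, which encodes perforin (0.39, SE 0.11, adjusted p = 0.0182), Srgn, the granule proteoglycan serglycin (0.26, SE 0.07, adjusted p = 0.0179), and Lamp1, a lysosomal membrane protein (0.17, SE 0.04, adjusted p = 0.00707), all on the log2 scale. Prf1 stood at 17.7 ± 3.09 CPM in naive (SD, n = 12) and 23.1 ± 4.6 CPM in day 7 libraries (SD, n = 13). Without the filter all 16 effectors entered the fit, and Gzma and Ccl5 passed as lower over the genotypes beside the 3 that rose. In that fit 6.67% of 29775 genes changed in either direction. Among 10 factors of cytotoxic lineages Id2, which NK cells need, rose by 0.54 (SE 0.08, adjusted p = 8.93e-05) and Runx3, which represses Cd4 in CD8 T cells, by 0.19 (SE 0.04, adjusted p = 0.00418). Tox, needed for CD4 lineage and NK cell development, fell by 0.27 (SE 0.05, adjusted p = 0.000562), and the other 7 factors did not pass. These 3 of 10 calls stand beside the same shares of all tested genes.

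Markers of further cell types were read in the same libraries. None of 6 tested NKT and innate-like genes, 11 tested B cell, 6 tested myeloid and 5 tested red cell and platelet genes changed over the genotypes in edgeR, DESeq2 or limma voom. At an unadjusted p under 0.05 edgeR had 1, 0, 1 and 1 of these. Without the filter edgeR called Lyz2, a myeloid gene, lower over the genotypes and in wild-type cells. Over the genotypes it called no other gene of these lists, beside 6.67% of 29775 genes. In knock-out cells it called 3 B cell genes (Blnk, Cd79a and Ms4a1) and 3 red cell genes (Hba-a1, Hba-a2 and Hbb-bs) lower, beside 1.81% of genes changed. DESeq2 with the filter called Cd79a lower in knock-out cells. Without Ighm, the B cell markers summed to 4.51 to 33.6 CPM in naive and 2.95 to 33.5 CPM in day 7 libraries. The 14 myeloid markers summed to 5.16 to 27.4 CPM and 6.52 to 19.2 CPM. The platelet genes Pf4 and Ppbp had no count in any library. Without replicate 4 of the knock-out naive group, the 5 markers that fell kept their calls, at -0.80 for Ctsw (adjusted p = 7.03e-08), -0.70 for Trdc (1.05e-05), -0.94 for Klrd1 (0.000945), -2.01 for Klrk1 (0.00136) and -1.60 for Nkg7 (0.0247) on the log2 scale.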

How the data were processed

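RNA of 25 libraries of sorted CD4 T cells was measured. Per the labels, total RNA was extracted and made into stranded SMARTer Pico libraries, which were sequenced from both ends. Per the submitters' processing notes, the build was mm10 and DESeq2 was used; for the aligner, counter, strand setting and annotation, nothing was given in the sources used here. The authors deposited raw counts per Ensembl gene, and all 25 sample columns were used. Symbols, exon lengths and overlaps came from GENCODE M21 (45143 of 46078 IDs had a symbol), and promoter windows from RefSeq.

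Genes were filtered with filterByExpr (minimum count 10, minimum total 15, 6 groups), which left 14703. edgeR's quasi-likelihood test was fitted on all 25 libraries with TMM scaling, 1 mean per group and no covariate, and was two-sided with Benjamini-Hochberg adjustment over all tested genes at 0.05. Adjusted p-values are from edgeR unless another test is named. Levels are TMM-scaled CPM as mean ± SD, and levels between genes were divided by exon length. Correlations used 100000 permutations of log2 CPM deviations within groups. Intervals of log2 changes are normal 95% intervals. Ncr1 and Xcl1, below the filter, were tested by exact permutation, a test added after seeing the data. The procedure was tested on simulated data.

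The markers and lists were chosen with earlier results of these data known. All 10 markers were named in every stage comparison, Cd4 as reference, and from each of the other 9 lists at most 4 called genes with the smallest p or, where none passed, at most 2 with the highest level. Alternatives were RLE size factors, no filter, a stricter filter (5 CPM in 4 libraries), limma voom with quality weights, DESeq2, only the groups compared, a replicate block of 6 consecutive library sets, and leaving out each library. Tools were Python 3.11.15 with scipy 1.17.1, pandas 2.3.3 and matplotlib 3.10.9, and R 4.3.3 with DESeq2 1.42.0, limma 3.58.1 and edgeR 4.0.16.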

Additional observations from a re-analysis of the deposited data

Results flagged for a closer look

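In 10 of 60 combinations of marker and group, the highest library lay far from the rest of its group by Dixon's gap test, and in none did the lowest. Chance flags about 1 in 20 groups, a rate that does not apply to 4 of the 10, in which every other library was at 0 and any count passes. Cd8a stood at 2.16 CPM in replicate 4 of the knock-in day 7 group, against a median of 0.331 in the others. Cd8b1 stood at 11.9 CPM in replicate 4 of the wild-type day 7 group and at 14.7 CPM in replicate 4 of the knock-out naive group. Ctsw reached 31.6 CPM in replicate 3 of the knock-out naive group, against a median of 27.7. Trdc reached 11.9 CPM in replicate 2 of the knock-out day 7 group, against 8.0. Xcl1 reached 1.26 CPM in replicate 3 of the knock-out day 7 group on 57 counts, and 0.314 CPM in replicate 1 of the wild-type naive group on 2 counts. The remaining 3 rest on 1 count each: Ncr1 at 0.0601 CPM in wild-type day 7 replicate 5 and at 0.0472 CPM in knock-in day 7 replicate 1, and Xcl1 at 0.0432 CPM in wild-type day 7 replicate 4.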

How the results depend on the processing

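The falls of Ctsw, Trdc, Klrd1, Klrk1 and Nkg7 over the genotypes kept their direction and stayed past the threshold in every alternative that tested them (30 or 31 each). No marker reversed a called direction. Calls within 1 genotype moved with the tool, and are given beside each marker above. Without the filter, Cd8a also passed in knock-out cells (-2.48, adjusted p = 0.00271), where edgeR with the filter gave -2.47 (adjusted p = 0.21). Cd8a passed over the genotypes with no filter (adjusted p = 0.0013), as did Klrd1 in knock-out against wild-type cells at day 7 (0.0275); the cause was not tested. Without the filter, Ncr1 gave -4.02 over the genotypes (SE 0.78, adjusted p = 1.05e-05). In that fit Ncr1 passed in wild-type (-4.55, adjusted p = 0.0297) and knock-out cells (-4.25, adjusted p = 0.0433). It did not pass in knock-in cells (-3.26, SE 1.42, adjusted p = 0.343). Xcl1 kept an exact permutation p between 0.395 and 0.928 without any 1 library. Without division by exon length, 27 of 60 group levels relative to Cd4 moved by more than 1 SD.

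The share of tested genes that passed moved more; without the filter it is over 29775 genes. At day 7 against naive it was 2.14% in wild-type (DESeq2 3.39%, voom 3.51%, no filter 3.0%; 0.95% to 3.19% without 1 library), 0.408% in knock-out (DESeq2 1.51%, voom 0.109%, no filter 1.81%, only the groups compared 0.246%; 0.193% to 0.616%) and 2.02% in knock-in cells (DESeq2 3.39%, voom 4.9%, no filter 2.99%; 0.716% to 2.52%). Over the genotypes it was 11.2% (8.46% to 11.9%). Knock-out against wild-type gave 0.0204% in naive cells (DESeq2 0.109%, no filter 0.494%; 0.0132% to 0.0198%) and 0.0476% at day 7 (DESeq2 0.524%, voom 0.0136%, no filter 1.17%, only the groups compared 0.00715%; 0.0132% to 0.1%). Knock-in against wild-type gave 0.0136% in naive cells (DESeq2 0.034%, voom 0.0272%, no filter 0.198%, only the groups compared 0.0824%; 0.0% to 0.0334%) and 0.0% at day 7 (no filter 0.322%; 0.0% to 0.0066%). The interactions gave 0.0% each (knock-out: DESeq2 0.0068%, no filter 0.682%; knock-in: DESeq2 0.0068%, voom 0.0136%, no filter 0.366%).

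The labels give no replicate numbers, so nothing pairs the libraries. A replicate block made of consecutive library numbers gave day 7 shares of 1.73%, 0.428%, 1.68% and 10.1% in wild-type, knock-out, knock-in and over the genotypes. The block gave 0.0884% when knock-out and wild-type cells were compared at day 7 and 0.0% when knock-in and wild-type cells were compared naive, and ended the Klrd1 call in knock-in cells (adjusted p = 0.0547). At the lowest depth, 6024043 counts, markers under 1 CPM rest on a few reads.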
